A study of Rattus norvegicus with 30 samples.

Results

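Testes of rats aged 30.5 and 36.5 days post-partum (dpp) were compared, 6 days apart in the first wave of spermatogenesis, when elongating spermatids appear in the tubules. The comparison used 6 of the 30 libraries of the series, chosen by the group written in their labels: 3 of 30.5 dpp and 3 of 36.5 dpp. All 6 came from whole testes of Wistar Han rats that were taken without culture, carried no transgene and received no agent. Each library came from a different testis. The sample titles write these ages as dpc, whereas the age labels give postnatal days, and dpp is used here. Other groups served as a reference: testes of 24.5 and 53.5 dpp, and testis explants of 8.5 dpp rats after 22 or 28 days of culture (D22 and D28), whose ages are equivalent to 30.5 and 36.5 dpp. Each cultured library pooled explants, and the medium held serum replacement, retinol and vitamin E. RNA with a poly(A) tail was sequenced, and the deposited values are FPKM, fragment numbers scaled by transcript length and library depth.

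During spermiogenesis, round haploid spermatids build an acrosome from the Golgi apparatus, shape the head around a microtubule manchette, assemble a flagellum and finally compact their DNA. In that last step histones are exchanged for transition proteins and then for protamines, and transcription stops. Many spermatid messengers are therefore made in advance and stored before they are translated.

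The 6 libraries formed 2 groups along the first dimension of a principal component analysis, which held 63.6% of the variance, but the groups were not equally tight. The 36.5 dpp libraries lay at 28.3, 30.4 and 31.1 and the 30.5 dpp libraries at -50.1, -7.23 and -32.5, for replicates 1, 2 and 3. Replicate 2 of 30.5 dpp stood apart from its group and lay toward the older testes, so the overall counts and the counts of the lists are also given without it. Over the 11227 genes tested, which are not independent replicates, its Pearson correlation with the 36.5 dpp libraries was between 0.964 and 0.966, against 0.915 to 0.916 for replicate 1 and 0.941 to 0.943 for replicate 3. The values carry no read numbers, and absolute depth is unknown. Depth relative to replicate 1 of 30.5 dpp, read from the spacing of low values, was between 0.732 and 1.39 over the 6 libraries.

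The steepest rises were those of genes that late spermatids use. Of 11227 genes whose median reached 0.5 FPKM at 30.5 or 36.5 dpp, 711 were called higher at 36.5 dpp (6.33% of those tested) and 135 were called lower (1.2%), 7.54% in either direction. Calls required an adjusted p no higher than 0.05 (limma on log2(FPKM + 1), Benjamini-Hochberg over all genes tested) together with group medians that differed by a factor of 2 or more. The added 1 makes this scale understate the change of genes at low FPKM. Without replicate 2 of 30.5 dpp, 867 genes were called higher and 325 lower, among them 703 of the 711 and 117 of the 135. By adjusted p alone, 1216 genes (10.8%) were higher and 2036 (18.1%) lower. The median change of all genes tested was -0.22 on the log2 scale, and 3264 genes had a positive one. The libraries of the ages did not overlap in 53.6% of all genes tested, and in 99.9% of those called higher, which the call selects for. An unadjusted p under 0.05 was found for 5390 of the 11227 genes, and counts of list members at that level are to be read against this share. In these bulk libraries, a larger number of cells of a type and more RNA per cell cannot be told apart.

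The number of calls depended strongly on single libraries. The numbers called higher and lower were 530 and 69 without replicate 1 of 30.5 dpp, and 6 and 2 without its replicate 3. They were 11 and 9, 9 and 8, and 50 and 10 without replicates 1, 2 and 3 of 36.5 dpp. The sizes of the changes moved less: the median log2 change of the 711 genes was 1.37 with all libraries and between 1.14 and 1.58 with any 1 left out, and that of the 135 was -0.76 and between -0.81 and -0.70. Every one of these genes that could be tested kept its sign in the 6 fits, and between 705 and 711 of the 711 had an unadjusted p under 0.05. The same libraries chose these genes, so both counts are a description. The ages did not overlap in 710 of the 711 and 133 of the 135, and for those genes the sign was fixed in advance. The genes called in all 6 fits were Tug1, Zc2hc1b, Septin4, Rps12l4 and C3h9orf50, of which the last pair were named after their values were seen.

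**Figure D1:**
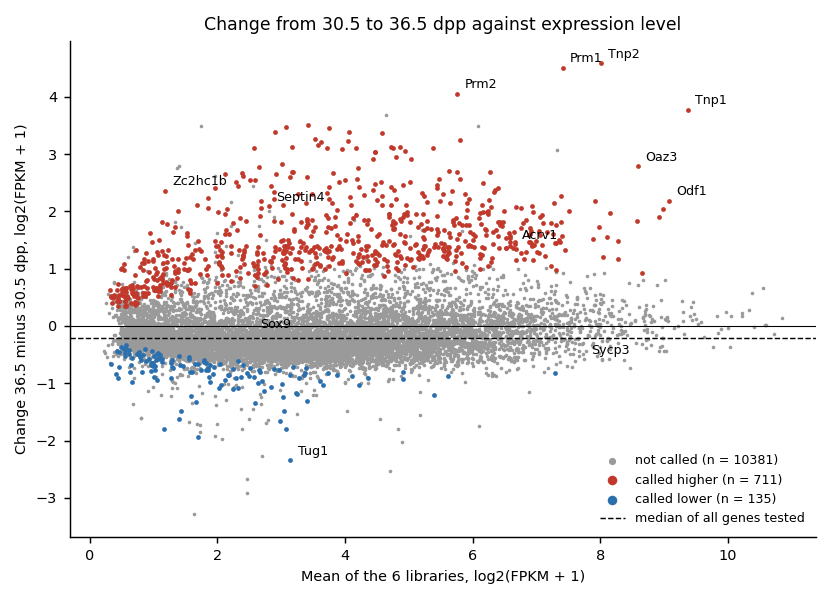
Change in log2(FPKM + 1) from 30.5 to 36.5 dpp (vertical axis) against the mean of the 6 libraries (horizontal axis) for the 11227 genes tested. Red points are the 711 genes called higher, blue points the 135 called lower and grey points the others, and the dashed line is the median of all genes at -0.22. Tnp2, Prm1, Prm2 and Tnp1 lie at the top, while the blue points have a median of -0.76.

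The genes called higher took 4.77% ± 1.97 of the summed FPKM of a library at 30.5 dpp and 15% ± 1.37 at 36.5 dpp (SD, n = 3). In single libraries the share was 2.95%, 6.87% and 4.49% at 30.5 dpp and 16.2%, 15.2% and 13.5% at 36.5 dpp, so the groups did not overlap and replicate 2 held the highest share of its group. These shares describe the genes that the comparison selected and carry no test. In libraries that played no part in the selection, the share was 0.613% ± 0.0407 at 24.5 dpp and 30.6% ± 1.61 at 53.5 dpp (SD, n = 3). Of the 711 genes, 411 had a median under 0.5 FPKM at 24.5 dpp, and the group median was highest at 53.5 dpp for 612 and at 36.5 dpp for 73. In the comparison of 53.5 with 24.5 dpp, which shared no library with that of 36.5 and 30.5 dpp, 16.7% of 11662 genes were called higher and 52.8% lower. Of the 711 genes, 704 could be tested there, and 687 were called higher and 2 lower. Of the 135 genes, 133 could be tested, and 107 were called lower and 0 higher (126 had a negative change).

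**Figure D2:**
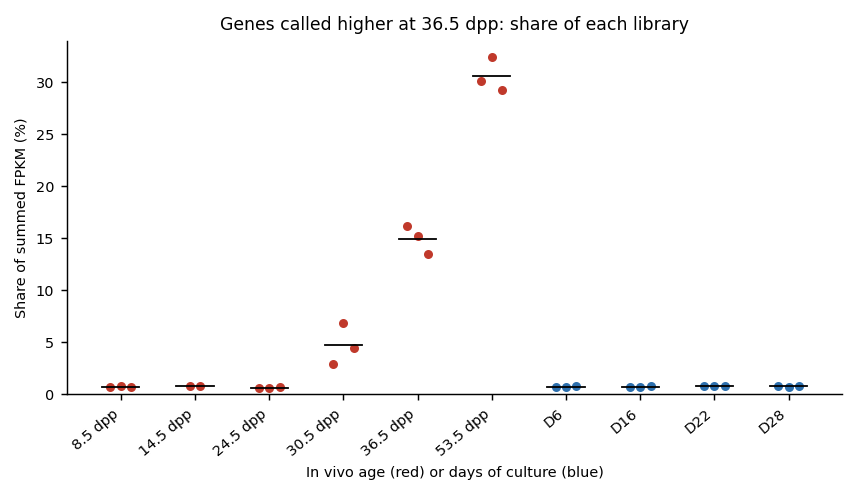
Share of the summed FPKM of each library (vertical axis, in percent) held by the 711 genes called higher at 36.5 dpp, with 1 point per library and a line at the group mean. Red points are testes by age and blue points are explants by days of culture. The share was 0.613% at 24.5 dpp, 4.77% at 30.5 dpp, 15% at 36.5 dpp and 30.6% at 53.5 dpp, and between 0.743% and 0.771% in the explants.

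Genes of proteins that replace histones in the spermatid nucleus gave the steepest rises. Of the 17 members tested of the list of spermatid chromatin proteins, 8 rose and 1 fell, and the median log2 change was 0.80, against -0.22 over all genes tested. Tnp2, which encodes transition protein 2, was at 17.2, 224 and 34.1 FPKM in replicates 1, 2 and 3 of 30.5 dpp and at 1485, 1317 and 1008 FPKM in those of 36.5 dpp. Its lowest library at 36.5 dpp was well above its highest at 30.5 dpp, replicate 2, and the change was 4.58 (SE 0.84, adjusted p = 0.0171) on the log2(FPKM + 1) scale. Tnp1, which encodes transition protein 1, went from 80.2, 423 and 164 to 2713, 2879 and 1855 FPKM, a change of 3.77 (SE 0.55, adjusted p = 0.017).

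Protamines are the small arginine-rich proteins that package sperm DNA. Prm1 was at 8.75, 151 and 29.5 FPKM at 30.5 dpp and at 958, 999 and 555 FPKM at 36.5 dpp, a change of 4.51 (SE 0.90, adjusted p = 0.0187). Prm2 was at 3.19, 44.5 and 11.3 FPKM and then at 232, 226 and 201 FPKM, a change of 4.05 (SE 0.76, adjusted p = 0.0175). In both genes replicate 2 of 30.5 dpp was the highest of its group, and the ages did not overlap. At 24.5 dpp, Prm1, Prm2 and Tnp1 were listed at 0 in all 3 libraries, and at 53.5 dpp Prm1 reached 4881 ± 883 FPKM, Prm2 870.4 ± 296 FPKM and Tnp1 9208 ± 2091 FPKM (SD, n = 3).

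The other members that rose were Prm3, a protamine relative, the spermatid linker histones H1f7 and Hils1, and Chd5, a chromatin remodeller. Their log2 changes were 2.33, 2.15, 1.90 and 1.81, with adjusted p between 0.017 and 0.0176. Hils1 was the most abundant of them, at 143, 428 and 251 FPKM at 30.5 dpp and 992, 998 and 818 FPKM at 36.5 dpp. Members known from earlier germ cells did not pass the test: the testis histones H2bc1 and H1f6 had log2 changes of 0.18 and 0.085, and Brdt, a bromodomain protein of spermatocytes and round spermatids, was at 151, 166 and 157 FPKM and then at 142, 164 and 169 FPKM. The member that fell was Morf4l1, a chromodomain subunit of histone acetyltransferase complexes, from 198, 210.0 and 214 to 175, 92.7 and 99.2 FPKM. Its change was -0.82 (SE 0.24, adjusted p = 0.0431) as deposited, and its call was lost after each library was centred on the median of all genes, where the change was -0.64.

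Part of the sperm tail genes rose with them. Of 18 tested members of the list of the fibrous sheath and outer dense fibres, the sheaths around the axoneme, 9 rose and 0 fell, with a median log2 change of 1.51. Odf1, an outer dense fibre protein, was at 157, 452 and 228 FPKM at 30.5 dpp and at 1330.4, 1171 and 986 FPKM at 36.5 dpp, a change of 2.19 (SE 0.36, adjusted p = 0.017). Akap4, the main scaffold of the fibrous sheath, went from 52.1, 157 and 89.5 to 383, 366 and 342 FPKM, a change of 2.00 (SE 0.36, adjusted p = 0.017). For both, every library of 36.5 dpp exceeded every library of 30.5 dpp.

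Oaz3, the spermatid antizyme that limits polyamine synthesis, had the largest change among the called members, from 85.1, 264 and 135 to 1097, 1072 and 864 FPKM (log2 change 2.79, SE 0.38, adjusted p = 0.017). Smcp, a protein of the mitochondrial capsule, went from 158, 409.9 and 236 to 1212, 1006 and 886 FPKM (log2 change 2.04, SE 0.33, adjusted p = 0.017). Cimap1a, Cimap1c, Cabyr, Fscb and Akap3 rose by 1.39 to 1.64 on the log2 scale. Gpx4, a selenoenzyme of the mitochondrial capsule, did not reach the ratio of 2 (log2 change 0.80, SE 0.20, adjusted p = 0.0301), and Odf2 did not pass the adjusted p (log2 change 0.71, SE 0.23, adjusted p = 0.0549). Ropn1 and Spa17 were listed at 0 in 1 of the 3 libraries of 30.5 dpp, a different one for each gene, and neither passed the test (3.68, adjusted p = 0.0516, and 3.06, adjusted p = 0.29).

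Head shaping gave the highest share of rises of any list. Of 21 tested members of the list of the perinuclear theca and manchette, 14 rose and 0 fell, with a median log2 change of 1.73. Spem1, needed for removal of cytoplasm from the sperm head, was at 2.99, 20.1 and 7.29 FPKM at 30.5 dpp and 82.6, 87.7 and 62.2 FPKM at 36.5 dpp (log2 change 3.13, SE 0.55, adjusted p = 0.017). The actin-related proteins Actrt3, Actl9 and Actrt2 and the calicin gene Ccin, whose products lie in the perinuclear theca, rose by 3.03, 2.57, 2.27 and 2.30. In each of the 4, replicate 2 was the highest of the 30.5 dpp group and the ages did not overlap.

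In Septin4, a component of the annulus of the sperm tail, the 30.5 dpp libraries lay close together. It was at 2.02, 2.64 and 2.56 FPKM at 30.5 dpp and at 14.3, 11.4 and 14.8 FPKM at 36.5 dpp. Its change was 2.09 (SE 0.14, adjusted p = 0.00369), and it remained called with any library left out. Sun5, which couples the sperm head to the tail, rose from 4.75, 6.73 and 4.73 to 21.3, 21.2 and 17.7 FPKM (log2 change 1.73, SE 0.15, adjusted p = 0.0108). Meig1, Septin12 and Hook1, which act in manchette and flagellum formation, did not pass the test, with log2 changes of 0.44 for Meig1, 0.34 for Septin12 and -0.11 for Hook1.

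**Figure D3:**
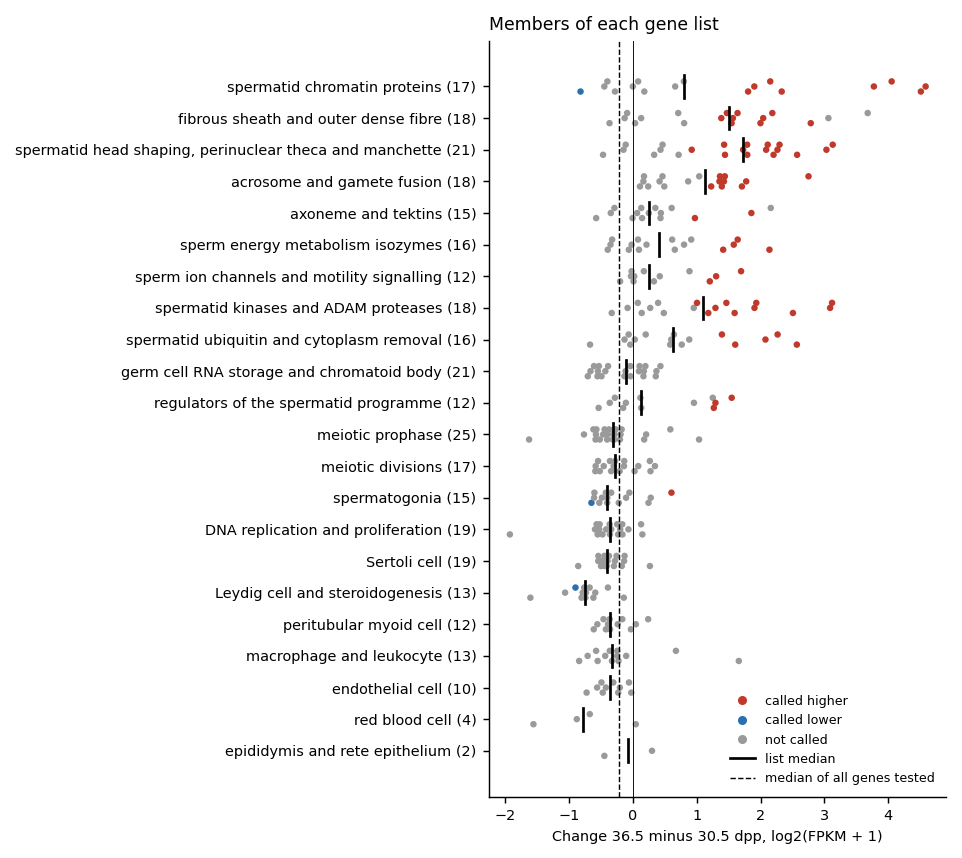
Change in log2(FPKM + 1) from 30.5 to 36.5 dpp for every tested member of the 22 gene lists, with the number tested in parentheses. Red and blue points passed the test as higher and lower, grey points did not, black bars are list medians and the dashed line is the median of all genes tested. The medians of the first 4 lists lie between 0.80 and 1.73, while those of the meiosis, spermatogonia, proliferation and somatic lists lie between -0.77 and -0.28, apart from the 2 epididymal genes at -0.071.

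The acrosome list was graded, from genes that rose to genes whose groups overlapped. Of 18 tested members, 9 rose and 0 fell, 13 were higher by adjusted p alone, and the median log2 change was 1.13. Acrv1, a protein of the acrosomal matrix, was at 41.7, 82.1 and 65.3 FPKM at 30.5 dpp and at 163, 161 and 172 FPKM at 36.5 dpp (log2 change 1.43, SE 0.23, adjusted p = 0.017). Spaca9 rose most, from 3.63, 11.6 and 5.22 to 65.1, 44.6 and 35.8 FPKM (log2 change 2.75, SE 0.39, adjusted p = 0.017), followed by Eqtn (1.78), Spaca4 (1.71), Zp3r (1.44) and Spaca1 (1.39). Izumo1, Tmem95 and Spam1, which act at the fusion with or passage to the egg, rose by 1.37, 1.36 and 1.23.

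Acr, the acrosin protease, was at 109, 135 and 123 FPKM at 30.5 dpp and at 177, 182 and 158 FPKM at 36.5 dpp. These groups did not overlap, and the change was 0.49 (SE 0.12, adjusted p = 0.0276) without reaching the ratio of 2. Acrbp and Zpbp, at log2 changes of 0.47 and 0.42, also passed the adjusted p but not the ratio. Crisp2, Spesp1, Dkkl1 and Zpbp2 overlapped between the ages, at log2 changes between 0.11 and 0.24. All 18 members were called higher at 53.5 dpp than at 24.5 dpp.

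Spermatid kinases and proteases followed, with 10 of 18 tested members higher, 0 lower and a median log2 change of 1.09. Of the testis-specific serine kinases, Tssk6, Tssk2, Tssk3, Tssk1b and Tssk5 rose by 3.12, 1.93, 1.91, 1.60 and 1.01, and Tssk4 did not pass the test (0.96, adjusted p = 0.0944). Tssk6, which is needed for DNA condensation, was at 3.8, 23.3 and 7.11 FPKM at 30.5 dpp and 91.4, 96.4 and 68.2 FPKM at 36.5 dpp. Prss37, an inactive protease of the sperm surface pathway, went from 1.23, 15.3 and 3.08 to 43.6, 53.1 and 36.8 FPKM (log2 change 3.09, SE 0.66, adjusted p = 0.0213). The sperm surface proteases were unequal: Adam6 and Adam1a rose by 2.51 and 1.18, while Adam2, Adam5, Adam30, Adam3a and Adam32 had log2 changes between -0.08 and 0.49 and none was called.

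Of 16 tested members of the list for ubiquitin and cytoplasm removal, 5 rose and 0 fell, with a median of 0.62. Among them, Fbxo39, Spata18, Rnf133 and Klhl10 rose by 2.57, 2.27, 2.08 and 1.40. Spata18, also known for mitochondrial quality control, was at 9.54, 27.9 and 15.5 FPKM at 30.5 dpp, 82.9, 101 and 64.3 FPKM at 36.5 dpp and 486 ± 12.6 FPKM at 53.5 dpp. Psma8, the proteasome subunit of meiotic cells, was at 80.1, 57.3 and 68.9 and then 43.5, 43.4 and 40.8 FPKM, a change of -0.67 (SE 0.14, adjusted p = 0.0195) that did not reach the ratio of 2.

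Sperm isozymes of energy metabolism gave 4 rises among 16 tested members and a median of 0.42. Gapdhs, the glyceraldehyde-3-phosphate dehydrogenase of the fibrous sheath, was at 14.1, 47.4 and 31.4 FPKM and then at 121, 188 and 86.5 FPKM (log2 change 2.14, SE 0.46, adjusted p = 0.0212). The others were Acsbg2, an acyl-CoA synthetase (1.64), Slc16a7, a monocarboxylate transporter (1.58), and Aldoart2, an aldolase (1.42). Pgk2 was at 254, 367 and 310.3 and then 522, 535 and 553 FPKM (log2 change 0.80, SE 0.15, adjusted p = 0.017) and missed the ratio of 2. Ldhc, Pdha2 and Cyct, which are isozymes of spermatocytes too, were not called, with log2 changes of -0.35, -0.32 and -0.39.

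In the lists of ion channels and of the axoneme, 3 of 12 and 2 of 15 tested members were called higher, against 6.33% of all genes tested. Of 12 tested members of the list of ion channels, 3 rose: Atp1a4, the sperm sodium pump (1.70), Catsper3, a subunit of the sperm calcium channel (1.31), and Lrrc52, an auxiliary subunit of the sperm potassium channel (1.21). The other CatSper subunits tested, Catsper2, Catsperd and Catsperg, had log2 changes of 0.33, 0.024 and -0.20 and were not called. Of 15 tested members of the axoneme list, Tekt5 (1.86) and Tekt2 (0.97) rose, and the call of Tekt2 was lost after rescaling each library to the same sum. Spag6 had the largest change of that list (2.16) and was not called. Dnah1, a heavy chain of the inner dynein arm, was at 8.99, 8.27 and 7.8 and then 5.42, 5.35 and 5.08 FPKM, a change of -0.57 (SE 0.096, adjusted p = 0.017) that did not reach the ratio of 2. The list medians were 0.25 for both.

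Regulators of the spermatid programme were divided: 3 of 12 were called higher, against 6.33% of all genes tested. By adjusted p alone, 4 were higher and 2 lower. Of 12 tested members, Sox5 (13.5, 29.4 and 22.4 to 65.1, 62.6 and 60.4 FPKM, log2 change 1.55, SE 0.25, adjusted p = 0.017), Camk4, a kinase that is also in the list of kinases (1.3), and Trim66 (1.27) rose, with a list median of 0.13 that was -0.030 after quantile normalization. Rfx2, a driver of the round spermatid programme, was at 110.2, 124 and 116 and then 122, 129 and 132 FPKM, and its groups overlapped. Crem, the cAMP-responsive activator of spermatid genes, was uneven between replicates, at 25.8, 8.42 and 1.2 FPKM at 30.5 dpp and 13.8, 1.29 and 12.1 FPKM at 36.5 dpp, so that no difference was detectable (log2 change -0.11, SE 1.04, adjusted p = 0.941). Mybl1, the activator of the pachytene programme, had a log2 change of -0.53 (SE 0.099, adjusted p = 0.0173) and did not reach the ratio of 2.

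Promoters of the genes called higher were searched for the cAMP response element TGACGTCA, which reads the same on both strands and through which the CREM protein acts. Promoters came from RefSeq on the build GRCr8, as the 250 bases before each annotated start, and 584 of the 711 genes had one. The element was in 16 of the 584 (2.74%), in 273 of 9210 genes tested (2.96%), in 4 of 112 genes called lower (3.57%) and in 466 of all 27457 promoters (1.7%). The share among the genes called higher was close to that of all genes tested. A match is a description of these letters, and no match says nothing of the factor. Of the genes followed here, Tnp1 holds the element, and Prm1, Tnp2, Akap4, Oaz3, Smcp and Acrv1 do not in this window. Shown are stretches around the element (in capitals, with up to 60 bases on each side, 5′ to 3′ along the gene) in Tnp1, in Znrf4, which encodes a ubiquitin ligase of the endoplasmic reticulum, and in the fusion gene Izumo1, all of which rose.
Tnp1: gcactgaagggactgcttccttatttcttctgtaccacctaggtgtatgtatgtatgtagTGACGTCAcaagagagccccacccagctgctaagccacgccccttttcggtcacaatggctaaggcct
Znrf4: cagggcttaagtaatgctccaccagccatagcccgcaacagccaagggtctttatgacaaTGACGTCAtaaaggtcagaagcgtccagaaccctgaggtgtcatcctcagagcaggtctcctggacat
Izumo1: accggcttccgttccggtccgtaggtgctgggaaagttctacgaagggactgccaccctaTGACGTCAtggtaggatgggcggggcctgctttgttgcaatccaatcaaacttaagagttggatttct
The Tnp1 stretch is on the minus strand at chr9:82044324-82044451, with 105 bases from the element to the annotated start. The stretch of Znrf4 is on the minus strand at chr9:1441685-1441812 (112 bases) and that of Izumo1 on the plus strand at chr1:105227444-105227571 (91 bases). The log2 changes were 3.77, 1.90 and 1.37 in that order.

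Genes that store and process messengers in germ cells gave no call. Of 21 tested members of the list of RNA storage and the chromatoid body, 0 were called, against 7.54% of all genes in either direction, and the median log2 change was -0.11. By limma's adjusted p alone, 5 were lower and 0 higher, and 12 had an unadjusted p under 0.05. Ddx4, the germ cell RNA helicase, was at 75.8, 78.2 and 73.6 FPKM at 30.5 dpp and at 68.7, 71.4 and 82.6 FPKM at 36.5 dpp, with overlapping groups (log2 change -0.035, SE 0.11, adjusted p = 0.806). Ybx2, which binds stored messengers, was at 1020.2, 1041 and 1055 and then 987, 1084 and 971 FPKM. Piwil1, the pachytene piRNA-binding protein, had a change of -0.66 (SE 0.12, adjusted p = 0.017) and Tdrd5 one of -0.70 (SE 0.16, adjusted p = 0.024), both short of the ratio of 2.

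Genes of meiosis gave no call either. Of 25 tested members of the meiotic prophase list, 0 were called, against 7.54% of all genes in either direction, a share at which such a list would hold few calls. The median log2 change was -0.31, against -0.22 for all genes. By adjusted p alone, 2 were higher and 5 lower, against 10.8% and 18.1% of all genes, and 11 had an unadjusted p under 0.05. The lowest change in the list was -1.62, and it was not called. Sycp3, a lateral element of the synaptonemal complex, was at 266, 251 and 268 FPKM at 30.5 dpp and at 160.1, 170.3 and 195 FPKM at 36.5 dpp. The groups did not overlap, and the change was -0.58 (SE 0.11, adjusted p = 0.0173). Mlh3, a crossover factor, had a log2 change of -0.76 (SE 0.14, adjusted p = 0.0173). Rec8, the meiotic cohesin, was higher instead, at 10.1, 14 and 12.7 and then 36.4, 23.7 and 20.3 FPKM (log2 change 1.04, SE 0.23, adjusted p = 0.0222), and missed the ratio of medians of 2.

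The list of the meiotic divisions had a median of -0.28 over 17 tested members, with 0 called, 5 lower by adjusted p alone and 7 at an unadjusted p under 0.05. At 7.54% of all genes called in either direction, this list and that of DNA replication would hold few calls. Ccna1, the cyclin of the first division, was at 66.6, 88.9 and 83.4 and then 92.1, 99.1 and 112 FPKM (log2 change 0.35, SE 0.14, adjusted p = 0.0977), and Cdc20, an activator of anaphase, at 119, 101 and 96.5 and then 84.6, 72.5 and 60.4 FPKM (log2 change -0.54, SE 0.15, adjusted p = 0.0402). In the list of DNA replication, 0 of 19 were called, 6 were lower by adjusted p alone, 9 had an unadjusted p under 0.05 and the median was -0.36. Rrm2 had the lowest change of that list (-1.92) and was not called, but it was called lower without replicate 2 of 36.5 dpp. In the spermatogonia list, Gfra1, the GDNF receptor of stem spermatogonia, rose from 0.748, 0.706 and 0.675 to 1.79, 1.9 and 1.17 FPKM, and Utf1 fell from 1.73, 1.21 and 1.47 to 0.683, 0.838 and 0.259 FPKM, so that both stayed under 2 FPKM. The other 13 tested members were not called, and the list median was -0.40. The call of Utf1 was lost after centring on the median.

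Markers of somatic cells gave 1 call. Over all genes tested, 7.54% were called in either direction and 1.2% lower. At such shares, lists of this size would hold few calls. The sum of the Sertoli cell markers was between 1320 and 1650 FPKM at 30.5 dpp and between 1120 and 1230 FPKM at 36.5 dpp, the lowest 30.5 dpp value being that of replicate 2. Of 19 tested Sertoli cell markers, 0 were called, 6 were lower by adjusted p alone and 11 had an unadjusted p under 0.05, with a median log2 change of -0.41. Sox9, the Sertoli cell transcription factor, was at 5.19, 5.32 and 5 and then 4.63, 4.2 and 5.06 FPKM with overlapping groups (log2 change -0.13, SE 0.10, adjusted p = 0.305). Shbg, the androgen-binding protein, was at 109, 82.2 and 114 and then 44.1, 68.2 and 56 FPKM (log2 change -0.85, SE 0.20, adjusted p = 0.0249), short of the ratio of 2.

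Leydig cell and steroidogenic genes had a median log2 change of -0.74 over 13 tested members, of which 1 was called and 10 had an unadjusted p under 0.05. This was Lhcgr, the receptor for luteinizing hormone, at 7.33, 4.18 and 7.12 FPKM at 30.5 dpp and 4.37, 2.28 and 2.09 FPKM at 36.5 dpp (log2 change -0.90, SE 0.27, adjusted p = 0.0474), whose groups overlapped. Its call was lost with pseudocounts of 0.1 and 0.5, without the filter, and after median centring, quantile normalization and centring on the Sertoli cell markers, at adjusted p between 0.051 and 0.168. Cyp17a1 was at 186, 88.1 and 147 and then 122, 71.1 and 60.2 FPKM (log2 change -0.73, SE 0.34, adjusted p = 0.132), and Insl3, a Leydig cell hormone, at 168, 148 and 258 and then 147, 96.4 and 95.7 FPKM (log2 change -0.74, SE 0.26, adjusted p = 0.065). Replicate 2 was the lowest of the 30.5 dpp libraries in both. Without it, 5 members of this list were called lower.

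At 7.54% of all genes called in either direction, short lists of markers would hold few calls or none. Of the other cell types a testis sample could hold, 0 markers were called among 12 tested for peritubular myoid cells (median -0.36), 13 for macrophages and leukocytes (-0.33), 10 for endothelium (-0.36) and 4 for red blood cells (-0.77). An unadjusted p under 0.05 was found for 2, 5, 0 and 2 of them in that order. Their summed levels overlapped between the ages for myoid cells (191 to 272 and 148 to 246 FPKM), endothelium (27.2 to 45.6 and 11.5 to 28.9 FPKM) and red blood cells (86.8 to 432 and 53.6 to 128 FPKM). Acta2, the smooth muscle actin of myoid cells, was at 10.1, 16.5 and 7.12 and then 35.3, 15.6 and 3.34 FPKM, and Pecam1 of endothelium at 2.44, 1.65 and 3.86 and then 1.62, 1.81 and 0.884 FPKM, with overlapping groups in both. Of 10 epididymal markers, 2 could be tested, 0 were called and 1 had an unadjusted p under 0.05, and Crisp1, Defb1, Lcn5, Lcn8, Rnase9 and Wfdc2 were listed at 0 in all 6 libraries. The macrophage sum was 55.8 to 108 FPKM at 30.5 dpp and 133 to 147 FPKM at 36.5 dpp, and at 36.5 dpp most of it was Aif1, at 11.4, 67.9 and 37.9 and then 89.8, 111 and 102 FPKM (log2 change 1.66, SE 0.56, adjusted p = 0.0619). Cd68, a macrophage lysosomal protein, was at 1.14, 0.443 and 1.98 and then 0.991, 0.798 and 0.219 FPKM (log2 change -0.36, SE 0.30, adjusted p = 0.351), opposite in sign to Aif1. The part of these shifts in marker sums in the other results was not tested.

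Without replicate 2 of 30.5 dpp, 867 of 11340 genes tested were called higher and 325 lower, against 711 and 135 of 11227 with all libraries. The list counts below are to be read against these larger numbers. The axoneme list then had 16 tested members, and the others had as many as above. The rises numbered 8 for chromatin, 10 for the fibrous sheath and outer dense fibres, 14 for head shaping, 11 for the acrosome, 10 for kinases and proteases, 6 for ubiquitin, 4 for energy metabolism, 4 for ion channels, 3 for the axoneme and 5 for the regulators. Morf4l1 was then no longer called lower. Rec8 was called higher in the meiotic prophase list (log2 change 1.13, adjusted p = 0.0225) and Aif1 in the macrophage list (2.21, adjusted p = 0.0184), and Hbb, a globin gene with near-identical copies, was called lower in the red blood cell list (-2.15, adjusted p = 0.0276). In the spermatogonia list 1 gene was higher and 2 were lower, and the lists of RNA storage, meiotic divisions, replication, Sertoli cells, myoid cells, endothelium and epididymis had 0 calls.

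The median of all genes moved by -0.22, so the number of falls depended on how libraries were scaled. The 135 genes called lower became 347 when each library was rescaled to the same sum, 38 when centred on the median of the tested genes, 55 after quantile normalization and 7 when centred on the Sertoli cell markers. Of all calls, 84% were rises as deposited and 68%, 95.8%, 93.6% and 99.4% under these 4 scalings. The medians of the meiotic division, meiotic prophase, replication, myoid and macrophage lists turned to between 0.0015 and 0.081 when centred on the Sertoli cell markers, and that of the RNA storage list was 0.063 when centred on the median and 0.25 when centred on the Sertoli cell markers. Of the 711 genes called higher, 650 were called higher under all 4 scalings. Whether the larger share of spermatid messengers at 36.5 dpp lowers other values was not tested.

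Named falls that held under all 4 scalings were Tug1, Mir483, Kcnj4, Fgf22, Abca15, Adipor2 and Fam83f, of which Fgf22 was named after its values were seen. Tug1, a long non-coding RNA needed for male fertility in mice, had the steepest fall, from 22.9, 17.3 and 16.9 FPKM at 30.5 dpp to 2.97, 2.77 and 3.06 FPKM at 36.5 dpp, with 30.5 dpp libraries of like value (log2 change -2.34, SE 0.13, adjusted p = 0.00283). At 24.5 dpp Tug1 was at 3.71 ± 0.182 FPKM and at 53.5 dpp at 7.67 ± 4.51 FPKM (SD, n = 3). Adipor2, an adiponectin receptor, went from 13.8, 12.9 and 12.7 to 6.24, 2.49 and 2.51 FPKM (log2 change -1.66, SE 0.28, adjusted p = 0.017). Kcnj4, a potassium channel, went from 3.75, 3.28 and 3.7 to 1, 0.883 and 1.01 FPKM (log2 change -1.22, SE 0.096, adjusted p = 0.00772). Abca15, a lipid transporter of the ABC family, went from 6.94, 9.94 and 9.26 to 2.88, 2.82 and 2.73 FPKM (log2 change -1.34, SE 0.14, adjusted p = 0.0154) and was at 3.19 ± 0.916 FPKM at 24.5 dpp. Mir483 is a microRNA gene inside another gene, so its poly(A) signal is uncertain, and it was at 1.86, 3.7 and 4.56 and then 0.327, 0.314 and 0 FPKM.

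The other genes among the 15 with the largest falls were Chchd5, Sec31b, Dcaf13, Psma3, Rab8b, Rnh1, Tuft1, Cdc42 and Cyp1b1, besides Fam83f, at log2 changes between -1.94 and -1.19. Chchd5 and Dcaf13 were each listed at 0 in replicates 1 and 2 of 36.5 dpp and at 3.52 and 2.41 FPKM in replicate 3. By size of the loss in FPKM, Morf4l1 and Cdc42, a small GTPase of the cytoskeleton, came first, the latter from 39.1, 70.6 and 88.7 to 25.6, 28.1 and 26.1 FPKM. Ppib, Lrrc71, Pnn, Trmt10a, Ahctf1 and Slc39a7 followed besides Tug1 and Sec31b, at log2 changes between -1.03 and -0.80.

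Beyond Tnp2, Prm1, Prm2 and Tnp1, the 15 largest rises were held by Spata32, Garin1a, Defb33, Serpina1, Garin3, H2ap, Fscn3, MGC93861, Oxct2b, Txndc2 and Cst13, at log2 changes between 3.16 and 3.50. Garin1a and Garin3 are testis Golgi proteins linked to the acrosome, the first at 0.0753, 5.89 and 1.17 FPKM at 30.5 dpp and 27, 31.1 and 23.6 FPKM at 36.5 dpp and the second at 1.03, 13.2 and 3.76 and then 58.2, 56.5 and 44.5 FPKM. Oxct2b, a testis ketone body transferase, went from 1.37, 13.8 and 3.47 to 56.3, 56 and 37.7 FPKM, and Txndc2, the sperm thioredoxin, from 1.1, 8.11 and 2.55 to 42.1, 39 and 29.8 FPKM. Fscn3, a testis fascin that bundles actin, went from 0.665, 9.75 and 1.91 to 37.3, 39.9 and 28.4 FPKM. In each of these, replicate 2 was the highest of the 30.5 dpp libraries, as it was in 657 of the 711 genes called higher (92.4%, against 26.1% of all genes tested). Zc2hc1b, a zinc finger gene, was listed at 0 in all 3 libraries of 30.5 dpp and was at 4.91, 4.13 and 3.48 FPKM at 36.5 dpp and 11.8 ± 2.87 FPKM at 53.5 dpp. By gain in FPKM, Irgc, Gsg1 and Hmgb4 stood beside the genes of the lists, and Hmgb4, a germ cell HMG-box protein, went from 67.4, 186 and 113 to 569.5, 520.0 and 462 FPKM.

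The step from 30.5 to 36.5 dpp was then set against the step from 24.5 to 30.5 dpp, as the difference of the 2 steps in 1 fit of the in vivo testes of 24.5 to 53.5 dpp. Both steps share the 30.5 dpp libraries, and ages 6 days apart bound each. Of 11802 genes tested, 14.5% had a larger (more positive) and 12.5% a smaller step than the preceding one at an adjusted p of at most 0.05. For Acrv1, which was under 1 FPKM at 24.5 dpp, the second step minus the first was -4.39 (SE 0.38, adjusted p = 8.75e-05). For Akap4, Odf1, Smcp and Tnp1 the differences were -4.17, -3.90, -4.60 and -3.70 (adjusted p = 0.000531, 0.000766, 0.000174 and 0.00909). For Tnp2, Prm1 and Prm2 no difference of the steps was detectable, at 0.25 (SE 1.18), -0.64 (SE 1.25) and 0.32 (SE 1.10), with adjusted p of 0.888, 0.714 and 0.842. Prm1, Prm2 and Tnp1 were listed at 0 at 24.5 dpp, so the size of their first step depends on the added 1. These differences therefore do not set the timing of Prm1 and Prm2 apart from that of the other genes. With 0.1 added instead, 1204 genes had a larger and 1501 a smaller step, against 1714 and 1477. By list, the second step was the smaller for 13 of 18 tested acrosome genes, 13 of 18 of the fibrous sheath and outer dense fibres, 11 of 21 of head shaping and 6 of 17 chromatin proteins, and larger for 0 in each. In the Sertoli cell list the second step was larger, or less negative, for 9 of 20 genes and smaller for 0. Against the following step, from 36.5 to 53.5 dpp, 9 genes of 11802 passed and 1045 had an unadjusted p under 0.05. That step covers more than 6 days, and steps were not divided by days, so few calls do not make the steps alike. Of the 711 genes called higher, 658 had a lower following step and 53 a higher one (median difference -0.86), against 7734 lower of all 11802. The 36.5 dpp libraries chose the 711 genes, so this is a description.

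**Figure D4:**
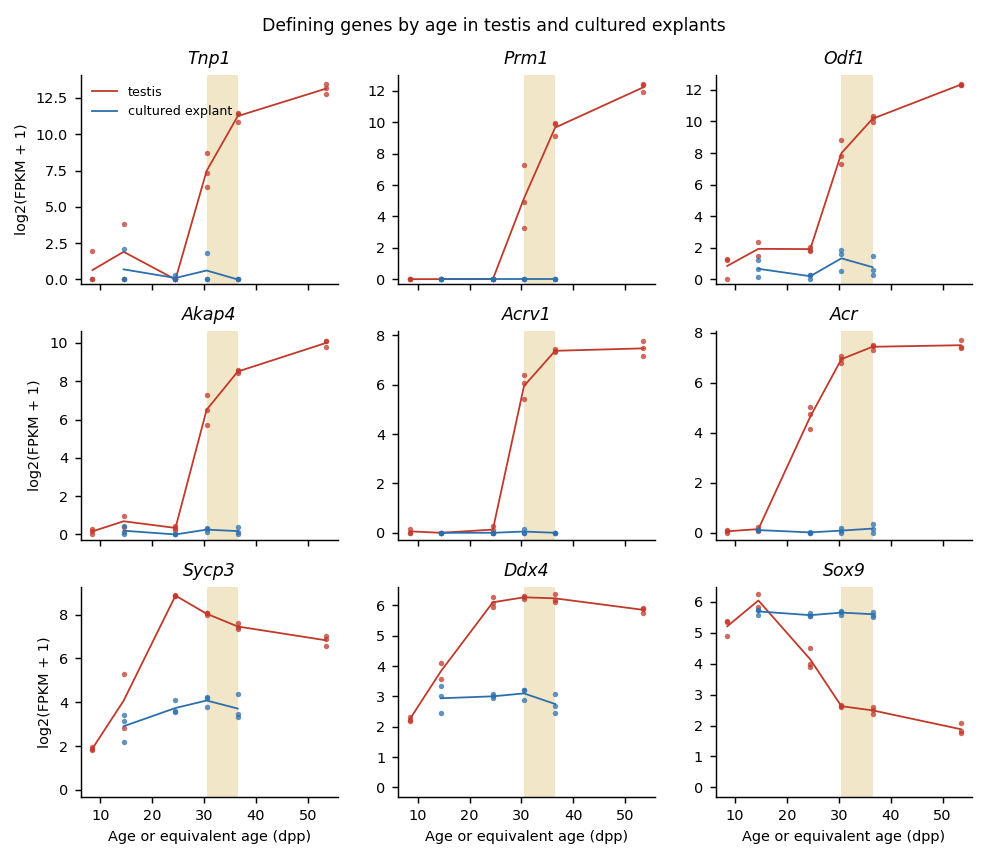
Expression in log2(FPKM + 1) (vertical axis) of 9 genes by age or equivalent age in dpp (horizontal axis), with 1 point per library and lines through the group means. Red stands for testes and blue for cultured explants, and the shaded band spans 30.5 to 36.5 dpp. Tnp1 and Prm1 climb within the band, Acr rises less than they do, Ddx4 is nearly flat, and the explants stay low for the spermatid genes.

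Explants of the same equivalent ages gave few calls. Of 11170 genes tested between D28 and D22, 3 were called, Ppie and Ruvbl2 lower and 1 gene without a matched symbol higher, and 537 had an unadjusted p under 0.05. None of the 304 genes that were called higher in vivo and could be tested in the explants was among the 3. Tnp1 was at 0, 2.62 and 0 FPKM at D22 and at 0 in all 3 libraries of D28. Prm1 was listed at 0 in all libraries of both groups, and Acrv1 was at 0.109, 0 and 0 FPKM at D22 and at 0 in all 3 libraries of D28. Odf1 was at 0.442, 2.56 and 2.02 FPKM at D22 and 1.74, 0.202 and 0.464 FPKM at D28. Sox9 was at 47.7 ± 2.76 FPKM at D28, against 4.63 ± 0.433 FPKM in testes of 36.5 dpp (SD, n = 3).

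The difference between the step in vivo and the step in culture was tested directly, in 1 fit of the 12 libraries. Of 12376 genes tested, 4.55% had a step in vivo that was higher than in culture and 0.21% one that was lower, at an adjusted p of at most 0.05 and a difference of at least 1 on the log2 scale. Of the 711 genes called higher in vivo, 528 were among the 563 called higher here. The comparison used the libraries that chose the 711 genes, so this count is a description. With any 1 of the 12 libraries left out, between 456 and 749 genes were called, the latter without replicate 2 of 30.5 dpp (681 higher and 68 lower).

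**Figure D5:**
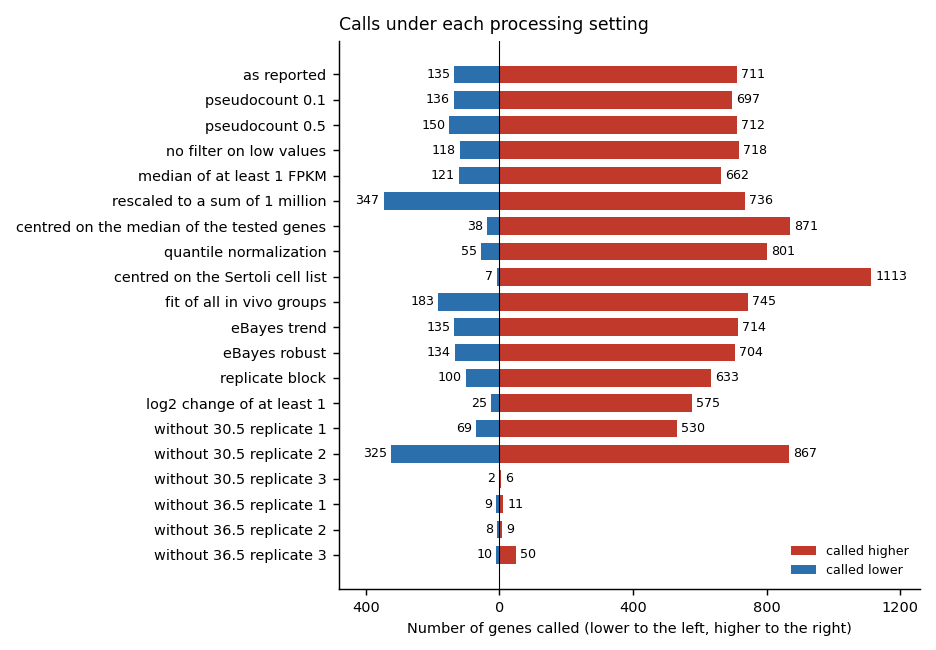
Number of genes called lower (blue, to the left) and higher (red, to the right) at 36.5 dpp under each processing setting other than adjusted p alone, starting with the one reported. Of the settings drawn, counts of rises lie between 530 and 1113 except in the 4 fits that leave out replicate 3 of 30.5 dpp or any library of 36.5 dpp, where they fall to between 6 and 50.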

How the data were processed

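Single-end reads of poly(A) RNA from a stranded library kit were aligned by the authors to the rat genome rn6 with STAR 2.5.2a in 2 passes, assembled against RefSeq genes with StringTie and quantified with Ballgown. The deposited values are FPKM per gene, and the processing notes also name bcl2fastq 2.17.1.14 and limma. No read numbers were used, so absolute depth is unknown and no counting interval is given. Symbols came from RefSeq tables of the build GRCr8, used for names and promoter sequences, and 17172 of 17322 gene identifiers matched.

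Groups came from the sample labels. Genes were kept where the median of 1 or more of the compared groups reached 0.5 FPKM, a pseudocount of 1 was added before taking log2, and linear models were fitted with limma 3.58.1 in R 4.3.3 with Benjamini-Hochberg adjustment over all genes tested. Calls required an adjusted p no higher than 0.05 with group medians apart by a factor of 2 or more, the comparison of steps by the adjusted p alone, and the difference between testis and culture with a log2 difference of at least 1 in place of the ratio. The p-values rest on the spread between the 3 libraries of each age, each from a different testis. The fits were tested on simulated data. Tables and plots were made with Python 3.11.15, numpy 2.4.6, pandas 2.3.3 and matplotlib 3.10.9.

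The gene lists and the rule for named genes were chosen with earlier results of these data known. The rule took, among called genes whose ages did not overlap, the 15 with the largest rises and the 15 with the largest falls on the log2 scale, then genes at 0 FPKM in all libraries of 1 age and at 1 FPKM or more in all of the other, and the 10 called genes with the largest gain and the 10 with the largest loss in FPKM, and in each list the 5 members with the largest changes and its defining genes. Not every gene taken by the rule is given in numbers. Other list members were given values after these were seen. Alternatives were other pseudocounts, filters, scalings, moderation settings, thresholds, a replicate block and the omission of each library.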

Additional observations from a re-analysis of the deposited data

Results flagged for a closer look

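For 9 genes of the spermatid programme, the step from 30.5 to 36.5 dpp in the testis was set against the step from D22 to D28 in the explants, as limma's difference of the steps. The testis step minus the culture step, on the log2(FPKM + 1) scale, was 4.98 for Tnp2, 4.51 for Prm1, 4.20 for Prm2 and 4.39 for Tnp1. Among the tail genes it was 3.20 for Oaz3, 2.75 for Odf1, 2.33 for Smcp and 2.08 for Akap4. For the acrosomal gene Acrv1 it was 1.48. No explant library of D22 or D28 held any of them at 3 FPKM or more. The 9 genes were also chosen for their rise in the same testis libraries. With such low explant values, the direction and the size of these differences restate that rise and are a description.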

How the results depend on the processing

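The 846 calls, the 711 rises and the 135 falls stayed within 1.5 times their number under other pseudocounts, filters, moderation settings and a fit of all in vivo groups. By adjusted p alone there were 3252 calls, 1216 higher and 2036 lower, and with a log2 change of at least 1 there were 25 falls. The falls numbered 347 after rescaling to an equal sum, 38 after median centring, 55 after quantile normalization and 7 after centring on the Sertoli cell list, where the rises numbered 1113. With each library left out in turn, between 8 and 1192 genes were called, 6 to 867 of them higher and 2 to 325 lower. Such fits keep 3 residual degrees of freedom instead of 4, and no called gene was called in the opposite direction under any setting. The difference between testis and culture gave 589 calls, 1373 by adjusted p alone, and 456 to 749 with a library left out. The 53.5 against 24.5 dpp comparison gave 8107 calls and 7951 to 8219 with a library left out. Of 82 named called genes, 64 to 82 kept their call under the settings that kept every library, and 2 to 76 with 1 library left out. The depth behind low values is unknown.

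Replicate numbers are not stated to pair the samples. The deviations of same-numbered libraries of 30.5 and 36.5 dpp from their group means correlated at 0.0056, 0.054 and -0.049. Those of differently numbered libraries lay between -0.080 and 0.10, so these values cannot tell whether samples were paired. With the replicate number as a block there were 733 calls, 633 higher and 100 lower, and the difference between the step and the following step gave 5 calls in place of 9.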
